A study of Glycine max with 6 samples.

Results

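CAB3 and LHCP are soybean genes for chlorophyll a/b-binding proteins of the light-harvesting antenna. They were followed across 2 leaf cell layers, the paraveinal mesophyll (PVM) and the palisade parenchyma (PP). The members were every probe set whose only gene symbol was CAB3 or LOC547819, the gene with the synonym LHCP. These 2 genes, of 6029 named by a single symbol, had 7 of the 37593 soybean probe sets on the array, 5 for CAB3 and 2 for LHCP. Each layer was sampled 3 times, each sample with its own one-colour Affymetrix soybean array. The design text calls the PVM samples biological replicates and the PP samples replicates. The p-values measure the spread between these samples, and that text does not say that the PP ones are biological replicates. PP arrays 1 and 2 correlated at 0.947 after normalization, and all other pairs at 0.811 to 0.885. All plants were untreated Glycine max from growth chambers, in 4-L pots. The day was 16 h at 25 °C, the night 8 h at 18 °C, and the lowest light level 360 to 400 µmol per square metre and second. Cells were cut from paraffin sections of fixed mature leaves with a laser and pooled within each sample, and their RNA was amplified before hybridisation. No plant age or cultivar is named in the labels.

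Chlorophyll a/b-binding proteins sit in the thylakoid membranes of chloroplasts, where they hold most of the leaf's antenna chlorophyll and pass excitation energy to the photosystems. They are encoded in the nucleus by a large gene family with closely similar members, made as precursors in the cytosol and imported into the plastid. Their messenger RNAs are known to be among the most abundant in green leaf tissue. The palisade is the upper, chloroplast-rich photosynthetic layer. The paraveinal mesophyll is a sheet of cells between the palisade and the spongy tissue at the level of the veins, known in soybean for storing vegetative storage proteins in its vacuoles.

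The brightest probe set of each antenna gene was among the brightest on every array, in PVM as well as in PP. No tested probe set of either gene passed the test between the layers. The brightest CAB3 probe set (GmaAffx.1301.131.A1_x_at) read 15817, 14806 and 18347 on PVM arrays 1, 2 and 3. On PP arrays 1, 2 and 3 it read 22184, 23985 and 27002. These are deposited intensities on a linear scale. All PP arrays lay above all PVM arrays, with means of 16323 ± 1824 in PVM and 24390 ± 2434 in PP (SD, n = 3 arrays per layer in all such values). An exact permutation test over the arrays (2-sided, on log2 intensity) gave p = 0.1, the smallest value that 3 against 3 arrays allow. On this deposited scale the added control transcripts, described below, also read higher in PP, 1.44 times on the means. Even for a real layer difference, fewer expressing cells and less RNA per cell could not be told apart in bulk samples such as these.

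The second CAB3 probe set by brightness (Gma.10882.1.S1_s_at) read 7586, 5886 and 8745 on the PVM arrays and 11484, 12125 and 11158 on the PP arrays. The layers did not overlap here either, and the PP mean was 1.56 times the PVM mean. The third (GmaAffx.93190.1.S1_s_at) read 2797, 2395 and 4128 in PVM and 5019, 4765 and 3812 in PP. Its layers overlapped, since PVM array 3 read above PP array 3.

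The remaining CAB3 probe sets were far dimmer. GmaAffx.759.1.S1_at read 149, 94.5 and 167 in PVM and 215, 89.0 and 55.5 in PP. The PP arrays spread below and above the PVM arrays, with a coefficient of variation of 70.3% in PP against 27.5% in PVM. GmaAffx.1301.6.A1_at read 5.49 to 12.9 in PVM and 14.1 to 30.7 in PP. It exceeded background on 1 of the 6 arrays, PP array 2, so it was not tested and no fold is given for it. Background on an array was the 95th percentile of the probe sets for other organisms, 10.96 to 20.67 in intensity.

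LHCP, the other antenna gene, was measured by a pair of probe sets designed from the same cDNA. The one marked _x_at (Gma.4593.1.S1_x_at) read 16123, 13130 and 18865 in PVM and 20038, 21209 and 25695 in PP. Again every PP array was above every PVM array, by 39.1% on the means. The one marked _a_at (Gma.4593.1.S1_a_at) read 14625, 11462 and 17882 in PVM and 17021, 17138 and 21205 in PP. Here PVM array 3 was above PP arrays 1 and 2, and the PP mean was 25.9% above the PVM mean.

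**Figure D1:**
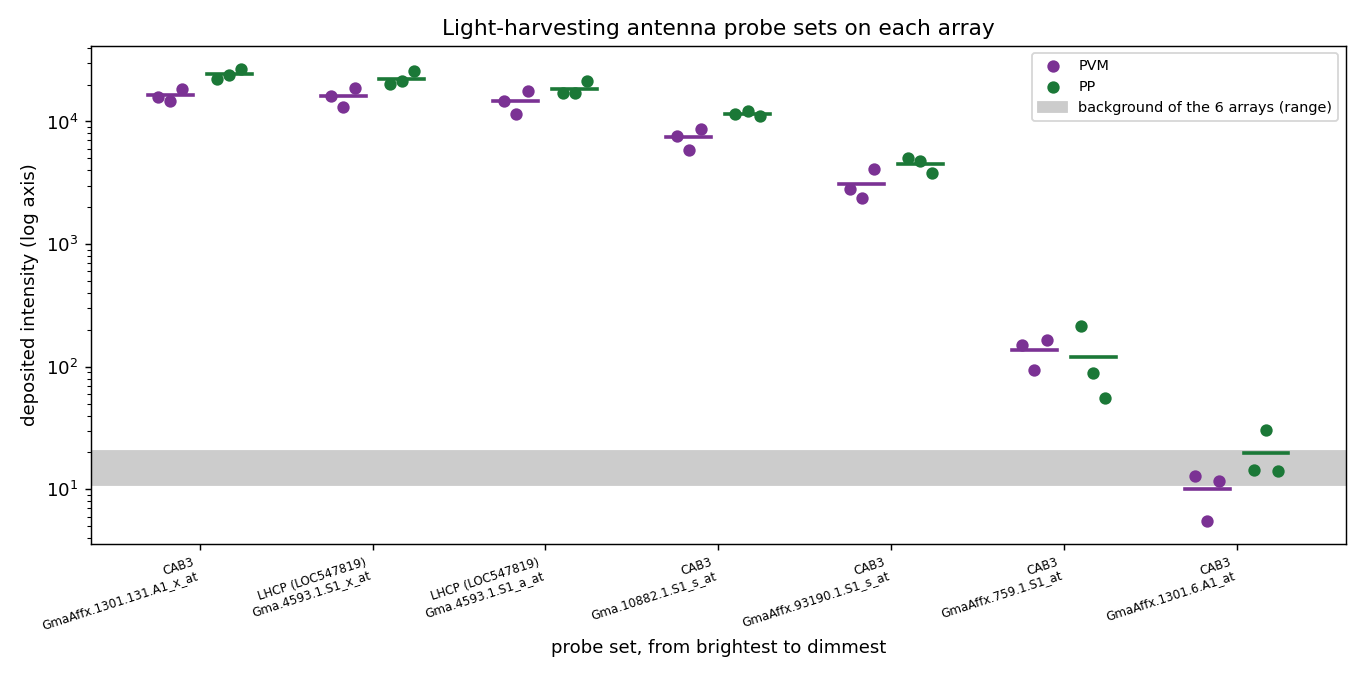
Deposited intensity (log axis) of the 7 CAB3 and LHCP probe sets on each array, with PVM arrays in purple and PP arrays in green. Points are single arrays in the order 1 to 3, short lines are group means, and the grey band spans the background of the 6 arrays. The 4 brightest have PP means of 11589 to 24390, and GmaAffx.1301.6.A1_at lies in or near the band.

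Of the 6 tested antenna probe sets, 3 had all PP arrays above all PVM arrays on the deposited scale. Over all 25314 tested soybean probe sets this held for 11.1%, and the reverse order held for 8.6%. Of the 100 brightest soybean probe sets it held for 83.

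By rank, the brightest CAB3 probe set and both LHCP probe sets stood near the top of both layers, and the other CAB3 probe sets lower. Among all soybean probe sets the brightest CAB3 probe set was in place 23, 16 and 23 on the PVM arrays and in place 17, 15 and 20 on the PP arrays. LHCP by its _x_at probe set was in place 21, 30 and 20 in PVM and 26, 28 and 25 in PP. By its _a_at probe set it was in place 32, 47 and 28 in PVM and 43, 52 and 38 in PP. These places did not separate the layers: the exact permutation p over the arrays (2-sided) was 0.3, 0.5 and 0.3 in that order. Probe sets differ in how strongly they bind, so a place describes brightness on the array and not copies of RNA.

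The second and the third CAB3 probe sets ranked lower. The second was in place 150 to 272 in PVM and 109 to 174 in PP, and the third in place 524 to 1129 in PVM and 487 to 741 in PP. The ranges of the layers overlapped for both. GmaAffx.759.1.S1_at was in place 11824 to 14150 in PVM and 9771 to 16560 in PP.

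By mean intensity over the 6 arrays, the brightest CAB3 probe set was number 18 and the brighter LHCP probe set number 24 of all soybean probe sets. Among the 10 brightest, 2 carry a single symbol here, LOC547644 in place 1 and LOC100790389 in place 9. These 2 read 1.59 and 1.52 times as bright in PP as in PVM on the deposited means, beside 1.49 for the brightest CAB3 probe set.

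The deposited scale itself differed between the layers. The array carries 18 probe sets for bacterial and phage transcripts that are added at hybridisation and contain no leaf RNA. Their geometric mean was 6422, 5959 and 6870 on the PVM arrays and 8448, 9393 and 9795 on the PP arrays. All 18 read higher on every PP array than on every PVM array, and the mean in PP was 1.44 times that in PVM. From dimmest to brightest the arrays came in the same order for these controls, for the brightest CAB3 probe set and for the LHCP _x_at probe set. Of the 100 brightest soybean probe sets, 83 also had all PP arrays above all PVM arrays.

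Intensities were also set against these controls on the same array. The brightest CAB3 probe set read 2.46, 2.48 and 2.67 times the control mean in PVM and 2.63, 2.55 and 2.76 times in PP. The layers overlapped, with 2.54 ± 0.114 in PVM and 2.65 ± 0.103 in PP (exact permutation p = 0.3, 2-sided). For the LHCP _x_at probe set the ratio was 2.49 ± 0.272 in PVM and 2.42 ± 0.187 in PP (exact permutation p = 0.8). For the LHCP _a_at probe set it was 2.27 ± 0.340 and 2.001 ± 0.171 (exact permutation p = 0.3).

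The second CAB3 probe set was at 1.15 ± 0.146 times the controls in PVM and 1.26 ± 0.113 in PP (exact permutation p = 0.4). The third was at 0.479 ± 0.107 and 0.497 ± 0.103 (exact permutation p = 1). The dim GmaAffx.759.1.S1_at was at 0.0211 ± 0.00457 times the controls in PVM against 0.0135 ± 0.0105 in PP (log2 difference 0.90, exact permutation p = 0.4). All 6 tested probe sets overlapped between the layers on this measure. Over all tested probe sets centred on the controls, 23.2% had PVM fully above PP and 1.89% had PP fully above PVM. The control signals moved with the deposited antenna difference, and whether the cause was the amount of labelled RNA, the scan or the scaling by the authors was not tested.

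**Figure D2:**
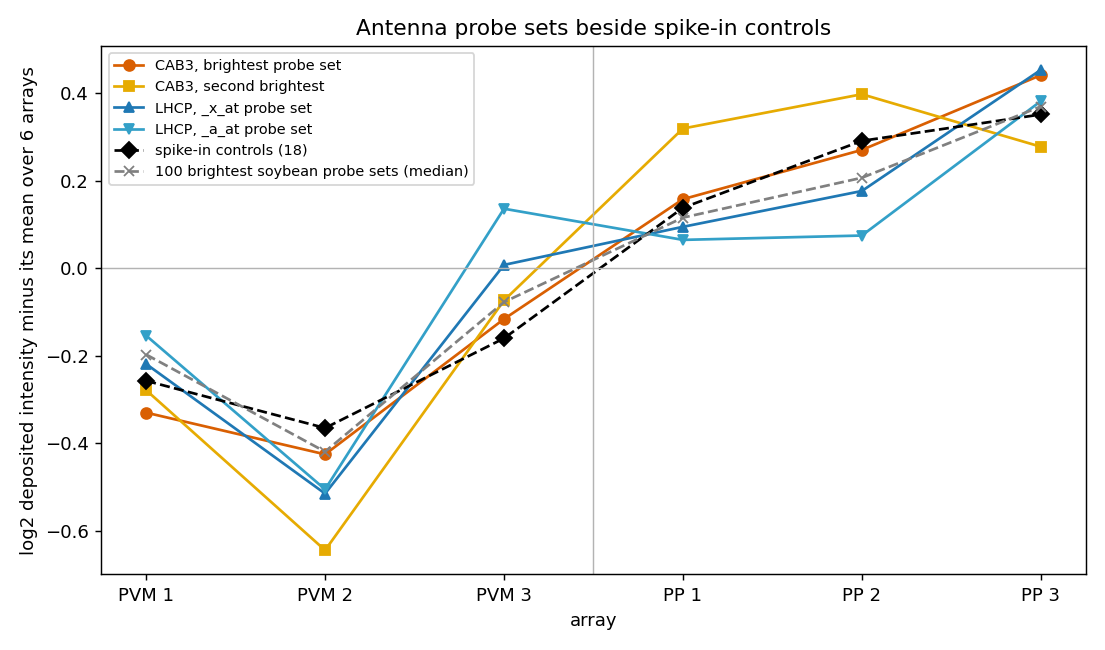
Log2 deposited intensity of 4 bright antenna probe sets on each array, minus each one's mean over the 6 arrays (solid lines), with the spike-in controls and the median of the 100 brightest soybean probe sets (dashed lines). All lines are lowest on PVM array 2, and those of the brightest CAB3 probe set and of the controls keep the same order of arrays.

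A measure that a constant scaling of an array cannot move is a probe set's share of the summed soybean intensity. The brightest CAB3 probe set took 1.22, 1.16 and 1.38 per mille of it on the PVM arrays and 1.56, 1.66 and 1.79 per mille on the PP arrays. The layers did not overlap on this measure (exact permutation p = 0.1, 2-sided). The second CAB3 probe set also had PP fully above PVM (exact permutation p = 0.1). The third CAB3 probe set, GmaAffx.759.1.S1_at and LHCP _a_at overlapped (exact permutation p = 0.2, 0.6 and 0.4). A shift shared by bright probe sets can still move this share. Without quantile normalization the 100 brightest soybean probe sets had a median of -0.51 (log2, PVM minus PP), against -0.060 over all tested. The shares of those 100 were not computed, and how many of all tested probe sets separated on this measure was not counted. The share of LHCP by the _x_at probe set was 1.23 ± 0.194 per mille in PVM and 1.53 ± 0.157 in PP, with overlapping arrays (exact permutation p = 0.2). The summed soybean intensity ranked the arrays in the same order as the controls. With arrays centred on the controls, the median tested soybean probe set was 0.46 higher in PVM on the log2 scale, while with quantile normalization it was at -0.057.

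The test used log2(intensity + 16) after quantile normalization, which gives all arrays the same distribution. A limma model was fitted to all 25314 tested soybean probe sets, and p-values were adjusted over all of them by the Benjamini-Hochberg method. Of the antenna probe sets, 0 of 6 passed an adjusted p of 0.05, against 0.0435% of all tested probe sets. At an unadjusted p under 0.05 it was also 0 of 6 for the antenna in limma, against 12.2% of all tested. Differences are given as PVM minus PP on the normalized log2 scale.

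On that scale the brightest CAB3 probe set was at 14.23, 14.36 and 14.23 in PVM and 14.31, 14.34 and 14.25 in PP. The arrays of the layers were interleaved. The difference was -0.029 with a standard error (SE) of 0.29 (adjusted p = 0.980, limma), and its 95% interval ran from -0.71 to 0.65, or 0.613-fold to 1.57-fold. A difference within that interval could not be resolved by this fit. After normalization the layers overlapped for all 6 tested antenna probe sets, while 10.1% of all tested had PP fully above PVM.

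LHCP differed by 0.058 (SE 0.29, adjusted p = 0.959) on its _x_at probe set and by 0.12 (SE 0.29, adjusted p = 0.907) on its _a_at probe set in limma. The 95% intervals were 0.652-fold to 1.66-fold and 0.677-fold to 1.76-fold. The second CAB3 probe set differed by -0.26 and the third by -0.37, with adjusted p of 0.797 and 0.730 in limma. Without PVM array 2 they were at -0.13 and -0.18, and without PVM array 3 the third was at -0.61. GmaAffx.759.1.S1_at differed by 0.21, with the widest interval of the 6, from -0.86 to 1.28. The value of this last probe set rested on single PP arrays, since it was at -0.10 without PP array 3 and at 0.67 without PP array 1. Centred on the spike-in controls it was at 0.83 (adjusted p = 0.431, limma), beside a median of 0.46 over all tested. Of the 6, 3 were lower and 3 higher in PVM, with a median of 0.014, beside a median of -0.057 over all tested probe sets.

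The arrays' own spread was small at the brightest CAB3 probe set and larger at the other tested CAB3 probe sets. On the normalized scale the second had an SD of 0.22 in PVM and 0.16 in PP, and the third 0.44 and 0.24. For GmaAffx.759.1.S1_at the SD was 0.28 in PVM and 0.80 in PP. Other bright probe sets had small SDs too. LHCP had 0.060 in PVM and 0.0043 in PP by _x_at, and 0.14 and 0.068 by _a_at. The strongest probe set of PSAD, a photosystem gene described below, had 0.049 and 0.041. The within-layer SD of the brightest CAB3 probe set was 0.061 on the normalized log2 scale, against a median of 0.57 over all tested probe sets, and 0.336% of them had a smaller one. The limma SE of 0.29 is larger than that spread because limma draws each variance toward a common value. With a prior that follows intensity and is fitted robustly, both changed together, the SE was 0.069 and the 95% interval ran from -0.18 to 0.12. With that prior too 0 of 6 antenna probe sets passed, beside 0.589% of all tested.

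For the brightest CAB3 probe set and both LHCP probe sets, the choice of scale moved the difference more than leaving out any 1 array did. Without quantile normalization the brightest CAB3 probe set was at -0.58 (SE 0.31) and the LHCP probe sets at -0.48 and -0.35. Centred on the soybean median they were at -0.61, -0.51 and -0.38. Centred on the spike-in controls they were at -0.060, 0.036 and 0.17, so that the sign of LHCP depended on the scale. On the spike-in scale the median over all tested probe sets was 0.46. Under none of these 3 scalings did an antenna probe set pass in limma, the smallest adjusted p being 0.465, 0.512 and 0.431. In the same 3 fits 0.0435%, 0.0514% and 0.802% of all tested probe sets passed.

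**Figure D3:**
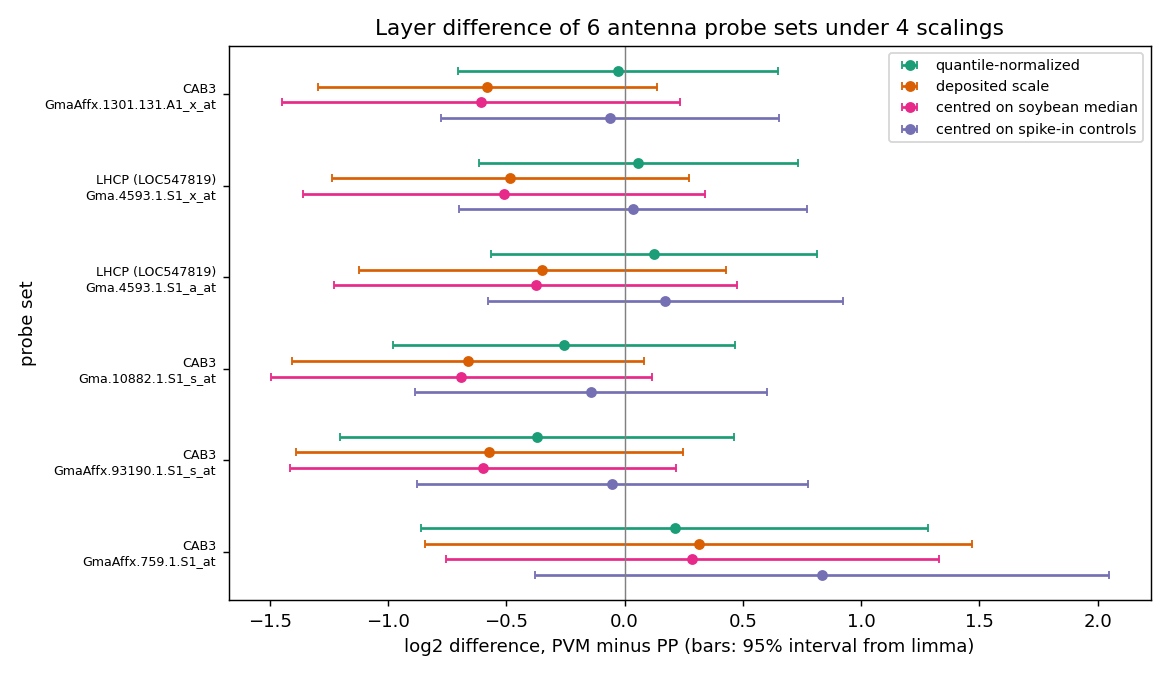
Log2 difference, PVM minus PP, of the 6 tested antenna probe sets under 4 scalings, with points for the limma estimate and bars for its 95% interval. All bars include 0, and the deposited and soybean-median scales place the 5 bright probe sets further toward PP than the other scales do.

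The ratio of LHCP to CAB3 within an array shows whether the genes' probe sets moved apart. For the _a_at probe set over the brightest CAB3 probe set, the log2 ratio of deposited intensities was -0.11, -0.37 and -0.037 in PVM and -0.38, -0.48 and -0.35 in PP. PVM array 2 fell among the PP arrays, and the difference was 0.23 (exact permutation p = 0.2, 2-sided, where 0.1 is the smallest possible). For the _x_at probe set the difference was 0.097 (exact permutation p = 0.3), again with overlap.

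The LHCP probe sets also differed slightly from each other. The log2 ratio of _a_at to _x_at was -0.14, -0.20 and -0.077 in PVM and -0.24, -0.31 and -0.28 in PP. The layers did not overlap, and the exact permutation p was 0.1, the smallest possible. The third CAB3 probe set over the brightest one gave a difference of 0.0068 (exact permutation p = 1). For the second it was -0.084 (exact permutation p = 0.5).

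Over the 6 arrays the antenna probe sets followed each other on the deposited log2 scale. The brightest CAB3 probe set had Pearson r of 0.96 with LHCP _x_at, 0.86 with LHCP _a_at, 0.93 with the second CAB3 probe set and 0.77 with the third. These arrays share the difference in scale described above, and after quantile normalization the same r were -0.84, -0.92, -0.15 and -0.16. Both LHCP probe sets remained similar to each other after normalization (r = 0.92), as did the second and the third CAB3 probe sets (r = 0.92). GmaAffx.759.1.S1_at followed none of them closely, with r of -0.38 to 0.23 on the deposited scale. These r describe 6 arrays and carry no test.

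How far each probe set speaks for its gene cannot be settled from the files. Of the 6 tested, 5 carry a mark in their names: _x_at for probes that also match other sequences, _s_at for probes shared by similar transcripts and _a_at for alternative transcripts of a gene. The exception is the dim GmaAffx.759.1.S1_at. The antenna family has closely similar copies, so the bright signals may sum several of them. RefSeq lists a further gene, LOC100805310, with both CAB3 and LHCP as synonyms, and 0 probe sets are assigned to it in the annotation used. The name stem GmaAffx.1301, shared by the brightest and the dimmest CAB3 probe sets, is carried by 78 probe sets on the array. The 21 of them with a single symbol are assigned to 17 different genes, the Rubisco activase RCA11 and the clock gene LHY among them. The 5 CAB3 probe sets rest on 5 different cDNA accessions.

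Other genes of the photosynthetic apparatus were taken from lists of symbols. The one further antenna-family gene was ELIP, an early light-inducible protein, a family known to bind chlorophyll under strong light. It read 1956, 3692 and 1687 in PVM and 5774, 5951 and 3254 in PP. PVM array 2 lay above PP array 3, so the layers overlapped. ELIP differed by -0.84 (SE 0.44, adjusted p = 0.497, limma), and by -0.54 when centred on the spike-in controls.

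Among genes of the photosystems and electron transport, 7 probe sets of 4 genes were tested. In PVM 6 were lower and 1 higher, against 53.7% lower over all tested, and 0 passed the threshold. Their median was -0.28, and 0.0054 when centred on the spike-in controls, where the median over all tested probe sets was 0.46. PSAD, a photosystem I subunit at the docking site of ferredoxin, was bright like the antenna: its strongest probe set read 12146 ± 1065 in PVM and 17308 ± 2124 in PP. Its ranks were 53 to 62 in PVM and 47 to 56 in PP. Its normalized difference was -0.036, close to that of the brightest CAB3 probe set. On PSAD's other probe sets the difference was -0.72, -0.30 and 0.56, the last being a dim one above background on 3 arrays.

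ATPC, the gamma subunit of the chloroplast ATP synthase, read 6323 ± 722 in PVM and 9909 ± 174 in PP. It differed by -0.25 (SE 0.30), and its layers did not overlap before or after normalization. PETC, the Rieske protein of the cytochrome b6f complex, read 5424 ± 1398 and 7979 ± 119 and differed by -0.28 (SE 0.33). After normalization the layers of PETC overlapped. FTRC, the catalytic subunit of ferredoxin-thioredoxin reductase, differed by -0.29 (SE 0.31), also with overlap.

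In chlorophyll synthesis, all 4 tested probe sets lay on the lower side in PVM, against 53.7% of all tested, and 0 passed the threshold. Their median was -0.70, or -0.16 when each of the 2 genes was taken by its brightest probe set. CHLH, the large subunit of magnesium chelatase, read 4640 ± 591 in PVM and 5947 ± 299.5 in PP and differed by -0.066. GSA1, which makes the tetrapyrrole precursor aminolevulinate, read 2682 ± 185 and 3670 ± 317 and differed by -0.26. Centred on the spike-in controls both probe sets were at 0.16 and 0.071, below the median of 0.46 over all tested on that scale. The dimmer GSA1 probe sets, at -1.14 and -1.33, overlapped between the layers.

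The Rubisco activases, which keep the carbon-fixing enzyme Rubisco active, had 5 of 6 probe sets lower in PVM, 0 past the threshold and a median of -0.26 (-0.079 on the spike-in scale). After normalization 3 of these 6 had PP fully above PVM, against 10.1% of all tested. Among light and clock regulators 8 of 9 probe sets were lower in PVM, against 53.7% of all tested, and 0 passed the threshold. Their median was -0.68, or -0.078 on the spike-in scale, where the median over all tested probe sets was 0.46. LHY, a morning transcription factor of the clock, had the smallest p of the list at -1.85 (SE 0.39, adjusted p = 0.162, limma), with all PP arrays above all PVM arrays. The other LHY probe set differed by -0.90 (SE 0.53, adjusted p = 0.548, limma) with overlapping arrays, and by -0.27 on the spike-in scale. ZTL1, known in Arabidopsis as a blue-light receptor that targets clock proteins for breakdown, read 560 ± 95.6 in PVM and 892 ± 192 in PP on its brighter probe set. It differed by -0.68 (SE 0.33, adjusted p = 0.460, limma) on that probe set and by -0.69 on the other. STF2, a bZIP factor related to HY5 of Arabidopsis, which promotes light-regulated genes, differed by -0.66 on its brighter probe set and by 0.54 on a dim one, both with overlapping arrays. COP10, known in Arabidopsis as a repressor of light responses in the dark, differed by -0.68 with an SE of 0.57 and overlapping arrays.

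**Figure D4:**
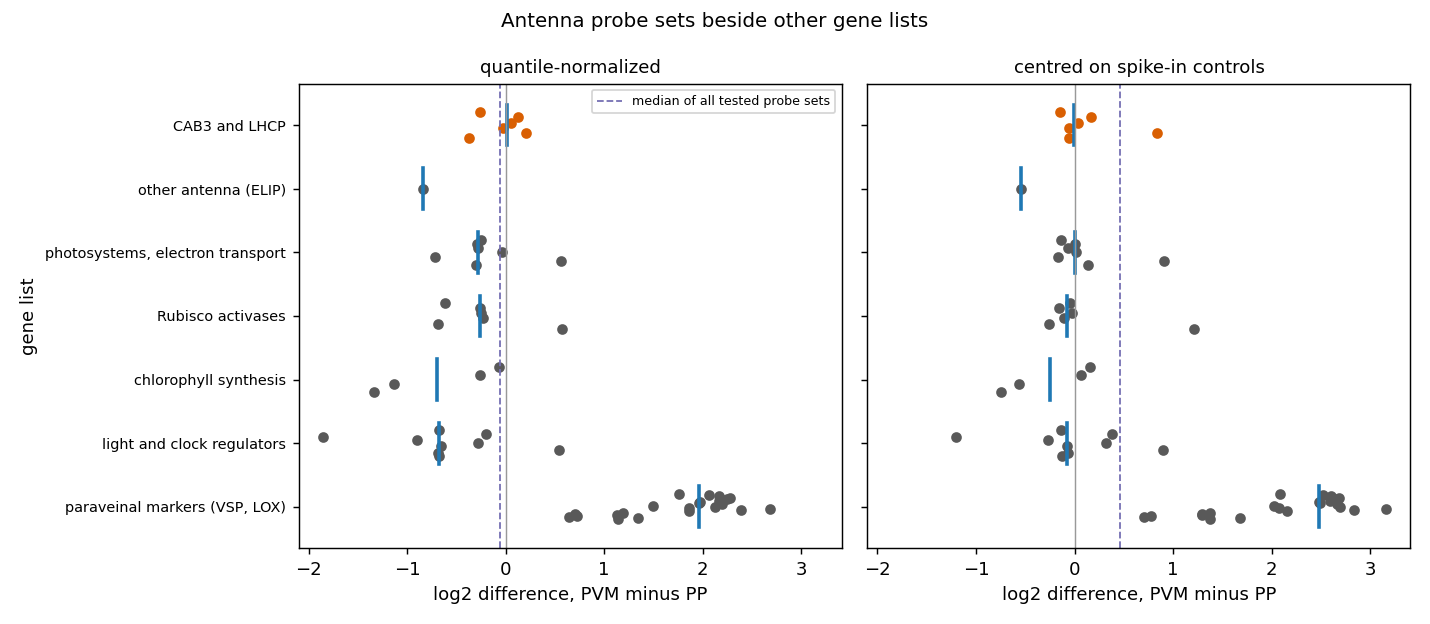
Log2 difference, PVM minus PP, of each tested probe set by gene list, quantile-normalized (left) and centred on the spike-in controls (right). Points are probe sets, blue lines list medians and the dashed line the median of all tested probe sets, at -0.057 and 0.46. In the left panel the CAB3 and LHCP probe sets lie between -0.37 and 0.21 and the paraveinal markers between 0.64 and 2.68.

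The labels of the layers were set against genes known for the paraveinal mesophyll, the storage protein genes VSPA and VSPB and the lipoxygenases LOXB1, LOX7 and LOX9. These genes were listed with earlier results of these data known, so their counts describe the samples and are no independent check. All 23 tested probe sets of these genes lay on the higher side in PVM, and their median was 1.96. None overlapped between the layers after normalization, an order that 8.62% of all tested probe sets showed. None of the 23 passed the adjusted threshold in limma, and 20 had an unadjusted p under 0.05 and the higher level in PVM, against 6.53% of all tested. Summed per array they gave 96495 to 108390 in PVM and 42257 to 63721 in PP, so these transcripts were also bright in the samples labelled PP. For the vascular list 5 probe sets of the sucrose transporter SUT1 and the sucrose synthase SS were tested, and their summed intensity with 1 untested probe set was 366 to 2182 in PVM and 391 to 535 in PP. The highest of these sums came from PVM array 1. Of the 5 tested, 4 were higher and 1 lower in PVM, with a median of 0.69. After normalization 1 had PVM fully above PP, 1 had an unadjusted p under 0.05 and 0 passed the adjusted threshold in limma. Of 20 probe sets on a nodule list, 3 were tested (SS, which the vascular list also holds, and UR2). All 3 were higher in PVM, with a median of 1.79, 2 with PVM fully above PP, 2 with an unadjusted p under 0.05 and 0 past the adjusted threshold in limma. No probe set matched the epidermis and guard cell list. Whether RNA of neighbouring cells contributed to the antenna signal of either layer was not tested.

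By the rule for genes with a like pattern, the 693 genes with a symbol other than a bare LOC number were ranked by Pearson r with the brightest CAB3 probe set over the 6 arrays after normalization. The highest were GF14B (r = 0.98), GASA11 (0.96), VPE2 (0.94), SPK-3 (0.94) and ALDH5F2 (0.93). On the deposited log2 scale the same genes had r of 0.074, -0.47, -0.12, 0.0020 and -0.21, so none of the 5 was alike on both scales. The normalized values of the brightest CAB3 probe set spanned 0.13 over the 6 arrays, against a median span of 1.64 over all tested probe sets. With 6 arrays and this many genes, such r describe these arrays and carry no test.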

How the data were processed

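The authors deposited 1 linear intensity per probe set and array. Which program summarised and scaled them is not stated in the labels. On each array the 2% trimmed mean was 125, so the deposited intensities carry a common scaling. Samples were grouped by title and cell type entry, although 1 free-text field of the PP samples speaks of paraveinal cells. A soybean probe set was tested if above background on at least 3 arrays. Background came from the 23350 probe sets for other organisms. Symbols came from the platform annotation and RefSeq (Glycine_max_v4.0): of 9047 annotated probe sets 8652 matched, and 8677 soybean probe sets had 1 symbol. No coordinates are printed, since the values come with no build.

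Tests used limma 3.58.1 in R 4.3.3 (2-sided, no covariates) after a pseudocount of 16 and quantile normalization, with the procedure tested on simulated data. The number of arrays limits the precision. Each list was described by its counts and median, with at most 4 genes of smallest p named a list, some given only in counts. PC7, on the list for electron transport, had 3 probe sets, all below background. The members and lists were chosen with earlier results of these data known. PP arrays 1 and 2 correlated at 0.947, and all other pairs at 0.811 to 0.885.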

Additional observations from a re-analysis of the deposited data

How the results depend on the processing

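Over 19 fits no antenna probe set passed, with adjusted p of 0.431 to 0.998. Same-numbered samples of the layers deviated together only weakly (r 0.016, 0.030 and 0.049), beside r of -0.042 to 0.010 for the other pairs. These r do not settle pairing, and the numbers were not taken as pairs in the main test. With the replicate block 0 antenna probe sets and 0 of all tested passed. The median of the 6 antenna probe sets (0.014) was -0.53 without quantile normalization and -0.55 with soybean median centring. It was 0.21 when restricted to the single probe set without an _x_at, _s_at or _a_at mark, a choice added after the data were seen. LHCP turned sign without quantile normalization (-0.35 and -0.48), with soybean median centring (-0.38 and -0.51) and as share of summed soybean intensity (-0.19 and -0.32, log2). GmaAffx.759.1.S1_at of CAB3 was at -0.10 without PP array 3 and 0.67 without PP array 1, and at 0.83 with spike-in centring. The count of probe sets called (11) was 203 with spike-in centring, 1 and 57 with pseudocounts of 1 and 64, 5 with no filter, 149 with the intensity trend and the robust prior together, 0 with PP arrays 1 and 2 averaged (also added later), and 0 to 3 with an array left out. At an unadjusted p under 0.05 in limma 3077 passed. Carbon fixation (median -0.26) was at -0.60 without quantile normalization, -0.63 with soybean median centring, -0.079 with spike-in centring and -0.44 with 1 probe set per gene. Photosystems and electron transport (-0.28) were at -0.51, -0.54 and 0.0054 under the same scalings. Spike-in centring put chlorophyll synthesis at -0.25 and light and clock regulators at -0.078, and 1 probe set per gene put chlorophyll synthesis at -0.16. With spike-in centring the median over all tested probe sets was 0.46. Leaving out 1 array gave chlorophyll synthesis -0.98 to -0.43 (the latter without PVM array 1), carbon fixation -0.40 (without PVM array 3) to -0.19, photosystems -0.33 to -0.19 and light and clock -0.77 to -0.43 (without PP array 3). The causes of these shifts were not tested. The dim GmaAffx.759.1.S1_at was above background on all 6 arrays and is limited by its spread over the PP arrays (coefficient of variation 70.3%). Signal near background leaves GmaAffx.1301.6.A1_at without a fold.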
